A study of Homo sapiens with 13 samples.

Results

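Gene expression was compared between the acute lymphoblastic leukemia (ALL) cell lines richest and poorest in glutathione (GSH). Lines were chosen by the mean GSH of untreated cells in separate cultures, measured by nuclear magnetic resonance. A mean of 0.3 mmol/L or more placed a line in the high-GSH group and a mean under 0.14 mmol/L in the low-GSH group. Of the 13 lines of the series, 9 fell into these groups and 4 lay between them. The high-GSH group held 4 lines, the T-cell ALL (T-ALL) lines HPB-ALL, Jurkat and Molt4 and the B-cell precursor ALL (BCP-ALL) line Nalm30. The low-GSH group held 5 lines, the T-ALL line ALL-SIL and the BCP-ALL lines 697, Nalm6, REH and RS4;11. Nalm30 lay just inside the upper threshold and Nalm16 just outside it, while REH lay just inside the lower threshold and P12-ICHIKAWA just outside it. CCRF-CEM and TALL-1 were the other lines between the groups. All lines are established human leukemia cell lines, none was treated, and each gave 1 array, so a group's replicates were different lines and a line's own spread was not measured. The labels state 30 hours of culture before RNA extraction, and the methods state an overnight culture in fresh medium.

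GSH is a tripeptide of glutamate, cysteine and glycine and the main small thiol of cells. It is made by glutamate-cysteine ligase and glutathione synthetase, is consumed by peroxidases and S-transferases, and is broken down by gamma-glutamyltransferases. The thioredoxin system is a parallel thiol pathway that draws on the same NADPH. In leukemia cells both have been studied for their part in resistance to chemotherapy.

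Expression is given as log2(signal + 16), whose floor is 4, and each difference is the mean of the high-GSH lines minus the mean of the low-GSH lines on that scale. A difference on it understates the change of a gene near the floor, and since each value is an average over a culture, a lower level per cell and fewer expressing cells cannot be told apart. Of 18549 genes measured, 12559 were tested with limma, once with no covariate and once with the lineage as a term, since 3 of 4 high-GSH lines were T-ALL and 4 of 5 low-GSH lines were BCP-ALL.

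The lineage labels held for every line. The mean of 18 T-cell precursor markers ran from 8.51 to 9.68 in the 7 T-ALL lines and from 4.89 to 5.42 in the 6 BCP-ALL lines, and the mean of 15 B-cell precursor markers ran from 9.18 to 9.69 in BCP-ALL and from 4.71 to 5.58 in T-ALL. Myeloid and NK-cell markers had means from 4.80 to 5.81 in every line, but single markers were high in some low-GSH lines. MPO was 12.11 in REH, LYZ 11.20 in Nalm6 and NKG7 11.19 in ALL-SIL, against at most 5.50, 7.90 and 8.74 in any other line. Nalm30 stood apart from the other 8 arrays compared, with correlations over all probe sets from 0.808 to 0.879, where the lowest correlation among pairs without it was 0.87. Its closest array was that of Nalm16, at 0.959. The arrays labelled P12-ICHIKAWA and TALL-1, both between the groups, correlated at 0.993, above any pair of the 9 lines compared (at most 0.956), so values that rest on both are also given without TALL-1. Because Nalm30 and ALL-SIL were the only high-GSH BCP-ALL line and the only low-GSH T-ALL line, values without them are given where they change a result. Without Nalm30 every high-GSH line is T-ALL, and without ALL-SIL every low-GSH line is BCP-ALL. A fit with no covariate is then more confounded with lineage.

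One gene separated the groups past the adjusted threshold of 0.05. CPVL, a vesicular serine carboxypeptidase-like protein, had a log2 expression of 7.96 in HPB-ALL, 8.35 in Jurkat, 8.66 in Molt4 and 7.63 in Nalm30. In the low-GSH lines its expression was 4.33 in 697, 4.11 in REH and at the floor in Nalm6, RS4;11 and ALL-SIL. Every high-GSH line therefore lay above every low-GSH line, by a gap of 3.30. The difference was 4.06 (standard error 0.229, adjusted p = 2.6e-04 by limma) and 3.91 with the lineage as a term (standard error 0.269, adjusted p = 0.00359). CPVL was the only gene called in either fit, 0.00796% of the genes tested in each. It was higher in both lineages, by 4.32 within T-ALL and by 3.52 within BCP-ALL, and the interaction between group and lineage had an adjusted p of 0.412. CPVL had a single probe set, and 5 of the 9 arrays lay within 1 log2 unit of the floor. Among the lines between the groups, Nalm16 (7.18), TALL-1 (7.40) and P12-ICHIKAWA (7.40) expressed it near the high-GSH level and CCRF-CEM (4.08) did not. The call was kept in both fits without each of the 9 lines in turn. It was lost within T-ALL alone, where ALL-SIL was the only low-GSH line (adjusted p = 0.0891), and when the 4 lines between the groups shared the estimate of the spread (adjusted p = 0.0793 with no covariate and 0.109 with the lineage, or 0.106 and 0.139 without TALL-1).

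**Figure D1:**
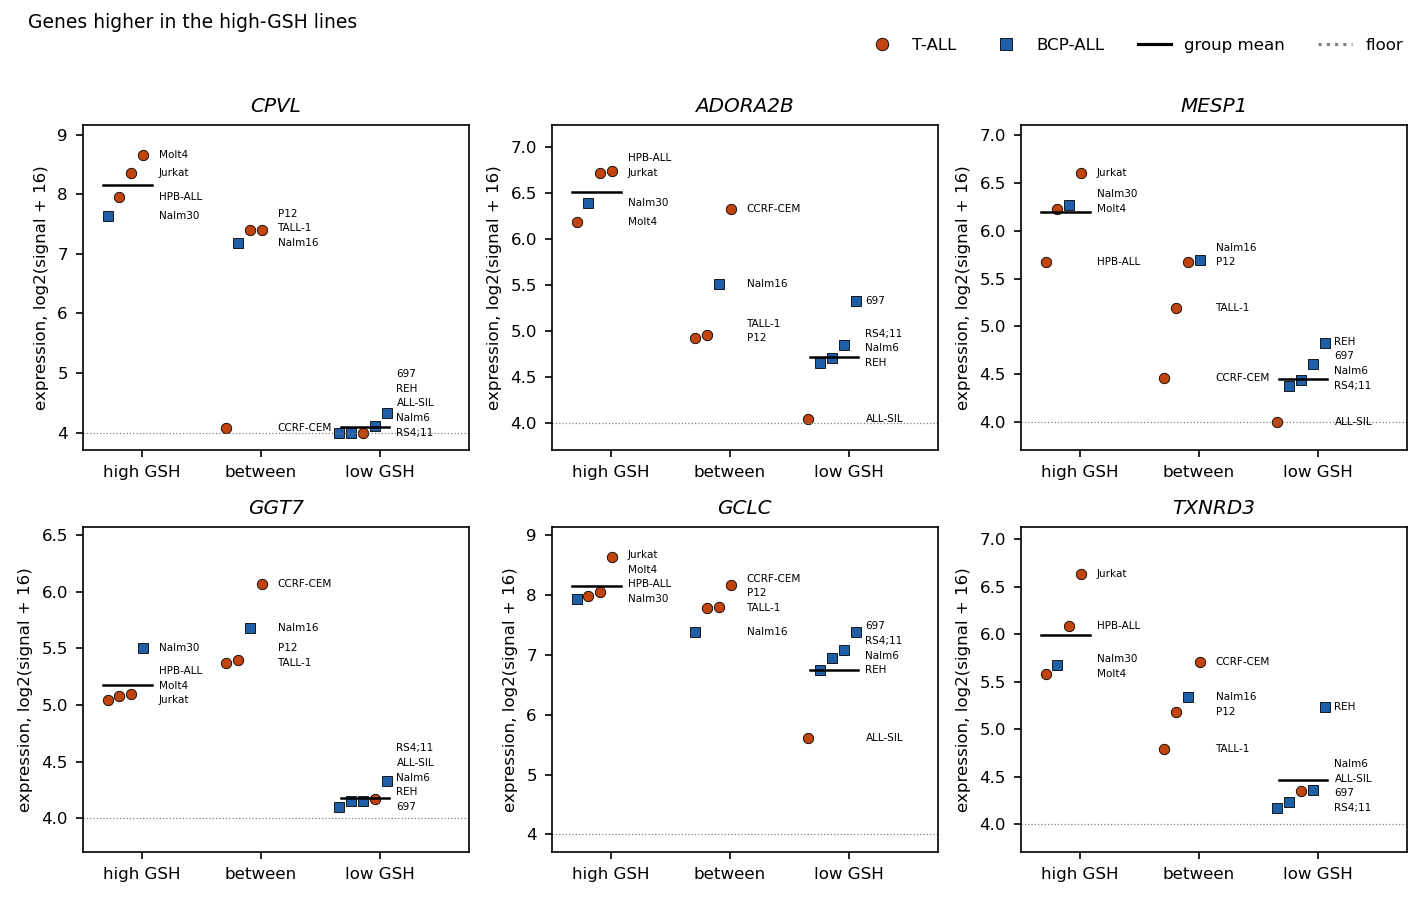
Expression of 6 genes higher in the high-GSH lines, as log2(signal + 16), in each of the 13 lines by GSH group. Circles are T-ALL lines, squares BCP-ALL lines, horizontal bars the means of the 4 high-GSH and 5 low-GSH lines and dotted lines the floor of 4. CPVL shows the widest gap of the 6, 3.30, and CCRF-CEM is the single line between the groups at the low-GSH level of CPVL.

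The higher genes next in rank did not pass the adjustment, although their groups did not overlap. MESP1, a basic helix-loop-helix factor of early mesoderm, was 5.67 in HPB-ALL, 6.61 in Jurkat, 6.23 in Molt4 and 6.27 in Nalm30, and from the floor in ALL-SIL to 4.83 in REH among the low-GSH lines. Its lowest high-GSH line exceeded its highest low-GSH line by 0.84. The difference was 1.74 (standard error 0.243, adjusted p = 0.149), and 1 of its 3 probe sets separated the groups.
ADORA2B, the low-affinity adenosine receptor A2B, was 6.74 in HPB-ALL, 6.72 in Jurkat, 6.19 in Molt4 and 6.39 in Nalm30. In the low-GSH lines it ran from 4.04 in ALL-SIL to 5.33 in 697. The groups lay 0.86 apart, and the difference was 1.80 (standard error 0.267, adjusted p = 0.194). CCRF-CEM, at 6.33, was the line between the groups closest to the high-GSH level of ADORA2B, and the other 3 lay from 4.92 to 5.51.
MAP3K21, a mixed-lineage kinase also called MLK4, ran from 5.63 in Nalm30 to 6.85 in Molt4 among the high-GSH lines. In the low-GSH lines it was 4.84 in REH and at the floor in the other 4. The difference was 2.24 (standard error 0.301, adjusted p = 0.148), and it passed without Nalm30, at 2.50 (adjusted p = 0.00374).

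Several of the genes higher in the high-GSH lines were lower in the 5 low-GSH lines than in all 8 others. GGT7, a member of the gamma-glutamyltransferase family, ran from 4.10 to 4.33 in the 5 low-GSH lines and from 5.04 to 5.50 in the high-GSH lines. The 4 lines between the groups lay from 5.37 to 6.07, so the low-GSH lines stood 0.70 below each of the 8 others. All 3 probe sets of GGT7 separated the groups, and the difference was 1.0 (standard error 0.164, adjusted p = 0.304). Its levels were low, with 5 of the 9 arrays within 1 log2 unit of the floor. In HPB-ALL, Jurkat and Molt4 it lay below the array median (5.20, 5.32 and 5.22). The study had already reported GGT7 among genes correlated with GSH. ABTB3, an ankyrin repeat and BTB domain protein, also had the low-GSH lines below all 8 others, by 0.69, with a difference of 2.50 and an adjusted p of 0.361. PLEKHG4, a guanine nucleotide exchange factor, lay between 4.03 and 4.23 in the low-GSH lines. It was 7.85 in HPB-ALL, 8.89 in Jurkat and 8.70 in Molt4, but 5.31 in Nalm30. ANKEF1, an ankyrin repeat and EF-hand protein, was likewise far higher in the T-ALL lines HPB-ALL (9.61), Jurkat (10.67) and Molt4 (10.30) than in Nalm30 (6.0), with the low-GSH lines from 4.67 to 5.34. For both genes the GSH difference was larger in T-ALL than in BCP-ALL, by 3.16 for PLEKHG4 (adjusted p = 0.0488 for the interaction) and by 3.82 for ANKEF1 (adjusted p = 0.0339). Without Nalm30 both genes passed with no covariate, PLEKHG4 at 4.37 (adjusted p = 0.000162) and ANKEF1 at 5.16 (adjusted p = 0.00015). All high-GSH lines left were then T-ALL, so GSH group and lineage cannot be told apart in those fits. The T-ALL lines between the groups were as high, at 9.09, 8.94 and 8.88 for PLEKHG4 and 10.14, 9.85 and 10.17 for ANKEF1 (CCRF-CEM, TALL-1 and P12-ICHIKAWA). Nalm16 was at 5.43 and 7.19. Of the 12559 genes tested, the 5 low-GSH lines lay below the 8 other lines for 30 genes and above them for 23. The 4 high-GSH lines lay above the 9 other lines for 14 genes, CPVL among them with a gap of 0.22, and below them for 3, CD70, GRID1 and MIR1244-3, which are named here after their values were seen. Without TALL-1 these 4 counts were 31, 25, 16 and 4. CD70, the ligand of the costimulatory receptor CD27, ran from 4.75 to 5.48 in the high-GSH lines and from 5.62 to 9.21 in the other 9.

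In the opposite direction the widest gaps were those of SOCS2 and CLEC2D. SOCS2, a feedback inhibitor of cytokine receptor signaling through JAK and STAT proteins, was 4.36 in HPB-ALL, 6.64 in Jurkat, 5.88 in Molt4 and 7.45 in Nalm30. In the low-GSH lines it was 9.48 in 697, 10.58 in Nalm6, 9.24 in REH, 10.70 in RS4;11 and 9.91 in ALL-SIL. The groups lay 1.79 apart, the low-GSH lines also lay 1.06 above all 8 other lines, and both probe sets separated the groups. The difference was -3.90 (standard error 0.597, adjusted p = 0.203), or -3.39 with the lineage (adjusted p = 0.37). It passed without Nalm30, at -4.36 (adjusted p = 0.0163).
SOCS2-AS1, a long noncoding RNA gene that is the immediate neighbour of SOCS2 in the reference annotation GRCh38.p14, showed the same separation. It was at the floor in HPB-ALL, 4.47 in Jurkat, 4.41 in Molt4 and 4.23 in Nalm30 and ran from 5.2 to 6.38 in the low-GSH lines. Its groups lay 0.73 apart, and the difference was -1.29 (standard error 0.276, adjusted p = 0.504). SOCS2-AS1 lay above the array median only in RS4;11, Nalm6 and ALL-SIL, so it was tested only through low-GSH lines.

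CLEC2D, a C-type lectin-like receptor also called LLT1 that is the ligand of the NK-cell receptor CD161, was 4.25 in HPB-ALL, 4.79 in Jurkat, 4.42 in Molt4 and 4.49 in Nalm30. It was 7.81 in 697, 7.38 in Nalm6, 6.56 in REH, 8.28 in RS4;11 and 6.77 in ALL-SIL. The lines between the groups lay from 4.34 to 4.70, within the high-GSH range, so CLEC2D was expressed more than 1 log2 unit above the floor in the 5 low-GSH lines and in no other line. All 4 probe sets separated the groups, and the difference was -2.87 (standard error 0.355, adjusted p = 0.111). It was -2.67 with the lineage (adjusted p = 0.266), -2.29 within T-ALL and -3.02 within BCP-ALL. With the spread shared among all 13 lines, which ended the call of CPVL, CLEC2D passed the threshold (adjusted p = 0.0109 by limma, or 0.0303 without TALL-1). It also passed without Nalm30 (0.0279), REH (0.0396) or ALL-SIL (0.0283). CLEC2D lay below the array median in every other line, so it passed the filter on expression only through the low-GSH lines where it was high. Its p-values are therefore a description and not independent support.

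**Figure D2:**
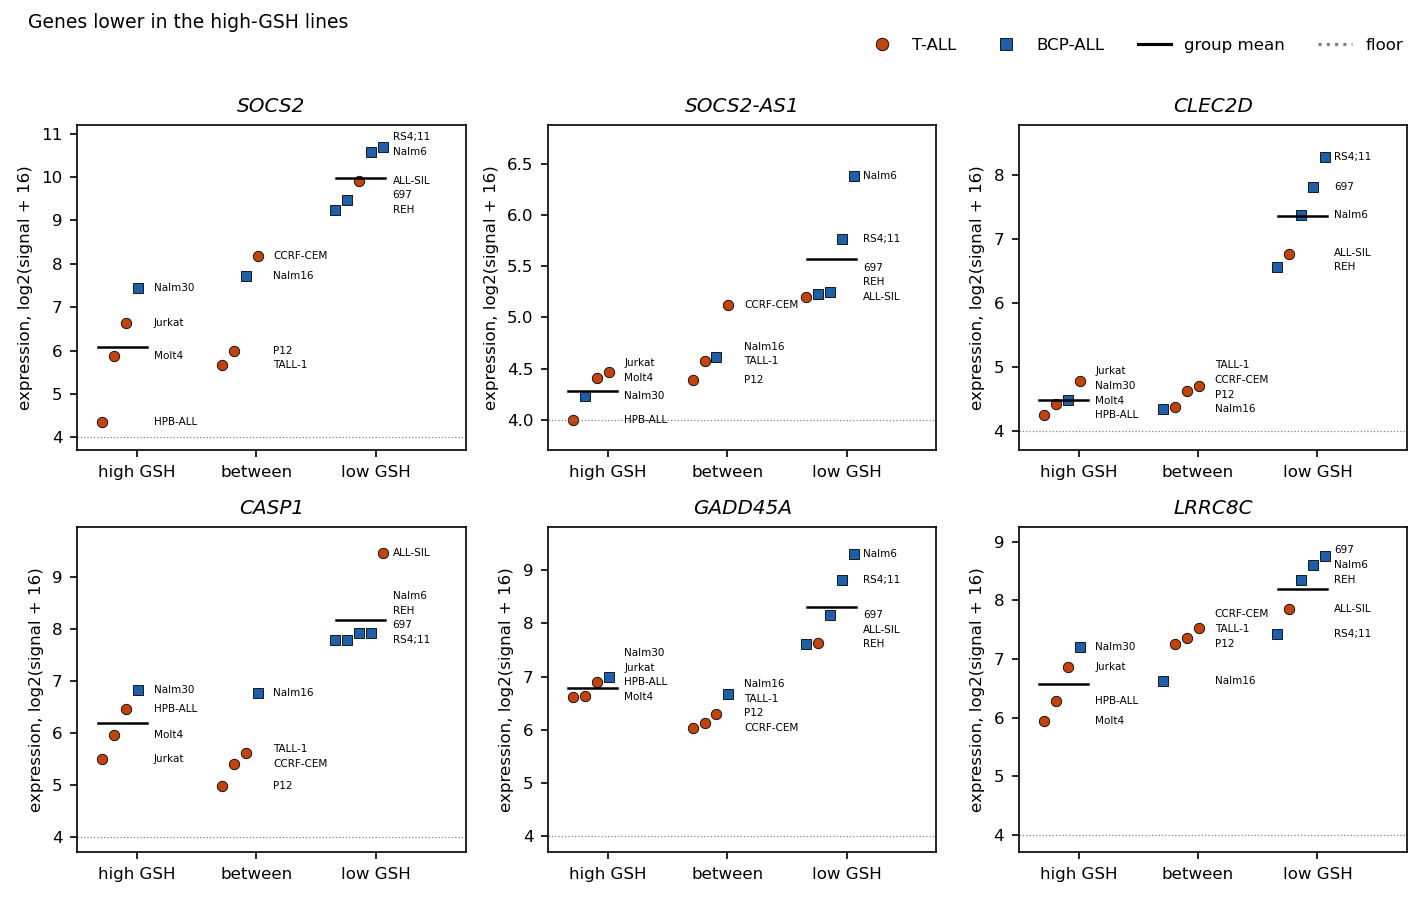
Expression of 6 genes lower in the high-GSH lines, as log2(signal + 16), in each of the 13 lines by GSH group. Circles are T-ALL lines, squares BCP-ALL lines, horizontal bars the means of the 4 high-GSH and 5 low-GSH lines and dotted lines the floor of 4. For each gene but LRRC8C, all 4 lines between the groups lie below all 5 low-GSH lines.

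CASP1, the protease that activates interleukin-1 beta in inflammasomes, was 6.45 in HPB-ALL, 5.50 in Jurkat, 5.95 in Molt4 and 6.83 in Nalm30. The low-GSH BCP-ALL lines lay from 7.79 to 7.93 and ALL-SIL at 9.46. The low-GSH lines exceeded all 8 others by at least 0.95, 4 of 5 probe sets separated the groups, and the difference was -2.0 (standard error 0.412, adjusted p = 0.504). GADD45A, a stress-response gene induced by DNA damage, ran from 6.62 to 7.0 in the high-GSH lines and from 7.61 to 9.31 in the low-GSH lines, a difference of -1.52 (standard error 0.363, adjusted p = 0.601) with 1 probe set. The lines between the groups lay from 6.04 to 6.68, so GADD45A was also higher in the 5 low-GSH lines than in any other, by 0.61. The remaining genes of the 8 widest gaps were CEBPZOS, a small mitochondrial protein gene (difference -2.08), FAM107B (-2.50) and CEACAM21 (-1.37), besides SOCS2, SOCS2-AS1, CLEC2D, CASP1 and GADD45A. Single lines set part of these differences, since CEBPZOS was 4.16 in Molt4 and at least 6.96 in the other high-GSH lines, and FAM107B was 4.46 in HPB-ALL and at least 7.98 in the others. MEF2A, a transcription factor of the MADS family, differed by -1.14 with a gap of 0.33. FLI1, an ETS factor of hematopoietic cells, differed by -1.52 and its groups overlapped, because ALL-SIL (8.75) lay below Jurkat (8.79).

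Over all genes tested, 129 (1.03%) had every high-GSH line above every low-GSH line and 82 (0.653%) had every high-GSH line below. Most of these gaps were narrow, with a median of 0.13 in the first set and 0.11 in the second. The mean difference reached 1 log2 unit for 52 genes of the first set and 40 of the second, and the gap reached 1 for 2 genes (CPVL and PLEKHG4) and 3 genes (SOCS2, CLEC2D and CEBPZOS). The counts of 129 and 82 were 173 and 64 with array medians aligned and 187 and 76 after quantile normalization. Without a covariate, 450 genes (3.58%) were higher and 266 (2.12%) lower at an unadjusted p under 0.05. With the lineage as a term, where CPVL was again the only call (0.00796%), 614 (4.89%) were higher and 899 (7.16%) lower, or 811 and 730 after quantile normalization.

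**Figure D3:**
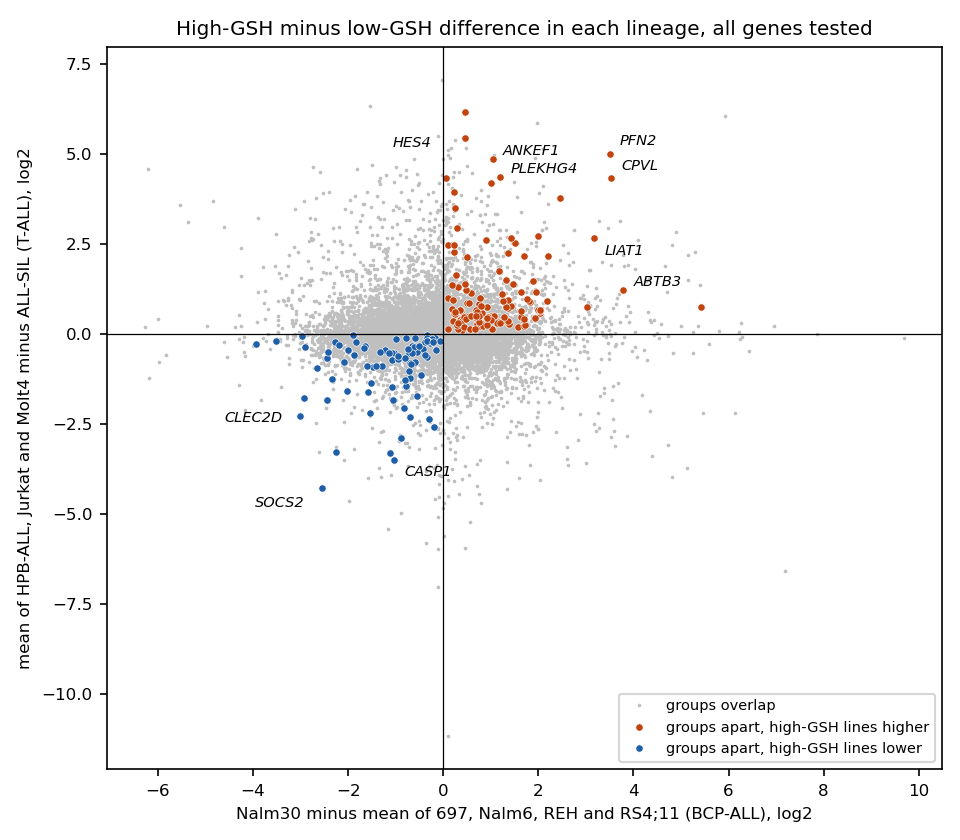
High-GSH minus low-GSH difference of each gene tested, in log2 units, within BCP-ALL (Nalm30 against 4 lines, horizontal axis) and within T-ALL (3 lines against ALL-SIL, vertical axis). Orange points are the 129 genes whose high-GSH lines all lie above the low-GSH lines, blue points the 82 genes whose high-GSH lines all lie below, and gray points the other genes. CPVL and PFN2 lie far from 0 on both axes, while HES4 lies at -0.01 in BCP-ALL and 4.85 in T-ALL.

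The check within lineages asked whether the 3 high-GSH T-ALL lines lay to one side of ALL-SIL and Nalm30 to the same side of the 4 low-GSH BCP-ALL lines. This order held upward for 888 genes (7.07%) and downward for 867 (6.9%). It is less strict than separation of the whole groups, because it allows a gene to differ between lineages. The rate at which genes unrelated to GSH would meet this order was not computed, so these shares are a description. LIAT1, whose protein binds the arginylation enzyme ATE1, met both conditions, with 5.59 in HPB-ALL, 7.52 in Jurkat, 7.25 in Molt4 and 7.98 in Nalm30 against 4.13 to 5.26 in the low-GSH lines. Its difference was 2.65 within T-ALL and 3.18 within BCP-ALL, with an adjusted p of 0.286 in the fit with the lineage. ZNF462, a zinc finger protein, had a difference of 2.70 within T-ALL and 2.0 within BCP-ALL. Line 697 (5.96) lay closest to the high-GSH lines, and without it ZNF462 passed with no covariate (2.63, adjusted p = 0.0344). Genes ordered downward in both lineages included ADAMTS10, a secreted metalloprotease (-1.62 in T-ALL and -1.59 in BCP-ALL), ARID3A, a B-lineage transcription factor (-1.85 and -2.44), and SOS1, the exchange factor that activates RAS (-1.36 and -1.52). The groups of these 3 genes were apart by 0.10, 0.12 and 0.24, and their adjusted p-values with the lineage were 0.266, 0.266 and 0.37. OSBPL8, a lipid transfer protein of the endoplasmic reticulum, had the smallest unadjusted p among lower genes in the fit with the lineage (difference -1.97, adjusted p = 0.266), yet its groups overlapped, with 8.52 to 9.52 in the high-GSH T-ALL lines, 7.05 in Nalm30, 10.83 in ALL-SIL and 8.97 to 9.35 in the low-GSH BCP-ALL lines.

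The GSH difference was not the same in both lineages for 195 genes (1.55%), by the interaction of group and lineage at an adjusted p under 0.05. The T-ALL difference was the more positive for 132 of them and the more negative for 63, or 90 and 83 with array medians aligned and 111 and 90 after quantile normalization, and the signs were opposite for 139. HES4, a transcriptional repressor and NOTCH target in T-ALL, was 8.37 in HPB-ALL, 9.86 in Jurkat and 9.07 in Molt4 against 4.25 in ALL-SIL, while Nalm30 (4.01) lay with the low-GSH BCP-ALL lines, from 4.0 to 4.08. Its difference was 4.85 in T-ALL and -0.01 in BCP-ALL (adjusted p = 0.0281 for the interaction), and without Nalm30 it passed with no covariate (5.03, adjusted p = 0.000242). With a single line in 2 of the 4 combinations of group and lineage, this fit assumed that Nalm30 and ALL-SIL vary like the other lines. The fit within BCP-ALL, which rests on the same assumption, set the single line Nalm30 against the 4 low-GSH lines and called 279 genes, 87 higher and 192 lower. These calls, CPVL among them (adjusted p = 0.0145), describe that line, whose array stood apart from the others, and not high-GSH BCP-ALL lines as a group. The fit within T-ALL likewise set 3 lines against the single line ALL-SIL and called 1 gene, TRDV3, a variable segment of the T-cell receptor delta chain named here after its value was seen. TRDV3 was 15.69 in ALL-SIL and from 4.41 to 4.68 in HPB-ALL, Jurkat and Molt4, and among the T-ALL lines between the groups it was 13.75 in P12-ICHIKAWA, 14.01 in TALL-1 and 4.48 in CCRF-CEM.

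Lineage markers differed between the GSH groups, whose makeup differed in lineage. In the gene lists from here on, passing means an unadjusted p under 0.05, unless an adjusted p is given beside it. Of all genes tested, 3.58% were higher and 2.12% lower at that p with no covariate, and 4.89% and 7.16% with the lineage. No list member was called after adjustment in either fit of the 9 lines. All 18 T-cell precursor markers tested were higher in the high-GSH lines, with a median difference of 2.62 against 0.00 over all genes, and 7 passed at an unadjusted p under 0.05. With the lineage as a term the median was 0.38, 11 were higher and 1 passed, LCK, the proximal T-cell receptor kinase, at 1.42. LCK and ZAP70, the kinase next to it in that pathway, were higher in Nalm30 (10.03 and 8.62) than in any low-GSH BCP-ALL line (at most 8.86 and 8.01). Nalm16, between the groups, had similar levels (9.65 and 8.17). Of the 18 markers, 5 were ordered upward within both lineages, LCK and ZAP70 among them, and 2 downward, CD5 and LAT. In Nalm30, 11 of the 18 lay within 1 log2 unit of the floor, and BCL11B was 5.46 against 4.25 to 8.36 in the low-GSH BCP-ALL lines. None of 14 B-cell precursor markers was higher, with a median of -2.52 that was -0.13 with the lineage. Likewise none of 8 MHC class II genes was higher (medians -1.99 and 0.06) and none of 6 progenitor markers was (-1.28 and 0.17). Of 5 myeloid markers tested 3 were higher (medians 0.06 and 0.02), and of 5 NK-cell markers 1 was (-0.06 and -0.18). The part of lineage in any single gene below was not tested beyond the term for it.

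Among the genes of GSH itself, GCLC, the catalytic subunit of glutamate-cysteine ligase, was 7.98 in HPB-ALL, 8.63 in Jurkat, 8.05 in Molt4 and 7.93 in Nalm30. It was 7.37 in 697, 6.95 in Nalm6, 6.74 in REH, 7.07 in RS4;11 and 5.61 in ALL-SIL, so the groups were apart by 0.56. The difference was 1.40 (standard error 0.352, adjusted p = 0.682), with 2.61 in T-ALL and 0.90 in BCP-ALL, and 2 of 3 probe sets separated the groups. TXNRD3, the thioredoxin-glutathione reductase, was 6.09 in HPB-ALL, 6.63 in Jurkat, 5.58 in Molt4 and 5.68 in Nalm30, against 5.23 in REH and 4.17 to 4.36 in the other low-GSH lines. Its difference was 1.53 (standard error 0.298, adjusted p = 0.504), with 1.75 in T-ALL and 1.18 in BCP-ALL, and both probe sets separated the groups. Both genes were set as markers of these groups with their relation to GSH in these lines already known, so their order is a description. The study also reported CBS, GSTM3, GSTA4, GGT1 and GGT7 as rising with GSH in these lines. Their values here are likewise a description.

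Of 11 synthesis and cysteine supply genes tested, 6 were higher in the high-GSH lines, with a median of 0.13, and GCLC and CBS passed at an unadjusted p under 0.05. CBS, which makes the cysteine precursor cystathionine, was 7.74 in Jurkat, 8.40 in Molt4 and 9.08 in Nalm30 but 4.27 in HPB-ALL, and it was 7.47 in the low-GSH line 697. GSS, glutathione synthetase, differed by 0.48 and SLC7A11, the cystine transporter, by -0.47, with overlapping groups. Of 13 glutathione S-transferases 8 were higher (median 0.05). GSTM3 (2.63) and GSTA4 (1.10) passed at an unadjusted p under 0.05 with no covariate, where 3.58% of all genes tested were higher. MGST3 (2.34) and GSTZ1 (1.26) passed with the lineage, where 4.89% were. GSTM3 was 1.77 with the lineage (unadjusted p = 0.112 by limma) and 0.06 within BCP-ALL, where Nalm30 (4.38) lay within the low-GSH range of 4.18 to 4.40, and it was 1.68 without Molt4 and 3.48 without Nalm30. MGST3 rested on ALL-SIL, at 4.24 against 8.42 or more in the other low-GSH lines. GSTZ1 differed by 0.13 within T-ALL and by 2.32 within BCP-ALL, where Nalm30 was the only high-GSH line. Of 5 hydrolases and peptidases 3 were higher (median 0.29), where GGT7 (1.0) and GGTLC1 (1.06) passed with no covariate and GGT7 (1.12) and GGT1 (0.46) with the lineage. GGT1 and GGTLC1 belong to a family of near-identical copies that probes may not tell apart. Of 5 peroxidases and the reductase 3 were higher (median 0.01) and none passed. Of 7 transporters of GSH and its conjugates 3 were higher (median -0.02), none passed with no covariate, and ABCC1, the efflux pump MRP1, differed by 0.63.

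Of 16 thioredoxin, glutaredoxin and peroxiredoxin genes 6 were higher (median -0.06) and TXNRD3 alone passed at an unadjusted p under 0.05. Of 11 NRF2 regulators and targets 6 were higher (median 0.13) and none passed with no covariate, with NFE2L2, the gene of NRF2, at -0.35 and BACH1, a repressor of its targets, at -0.51 with no covariate and -0.75 with the lineage. SRXN1, the sulfiredoxin gene, was 10.76 in Jurkat and at most 5.50 in the other 8 lines. Of 11 genes of NADPH supply 4 were higher (median -0.11). NNT, the mitochondrial transhydrogenase (-0.65), and NADK, the kinase that makes NADP from NAD (-0.70), were lower at an unadjusted p under 0.05, and PGLS, of the pentose phosphate pathway, was higher with the lineage (0.60). Of 11 serine synthesis and ATF4 genes 4 were higher (median -0.08), and of 8 genes of iron handling and lipid peroxidation 4 were (median 0.01), with none passing in either list. None of 7 metallothioneins was higher with no covariate (median -0.78) and 6 were with the lineage (0.27), and none passed.

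**Figure D4:**
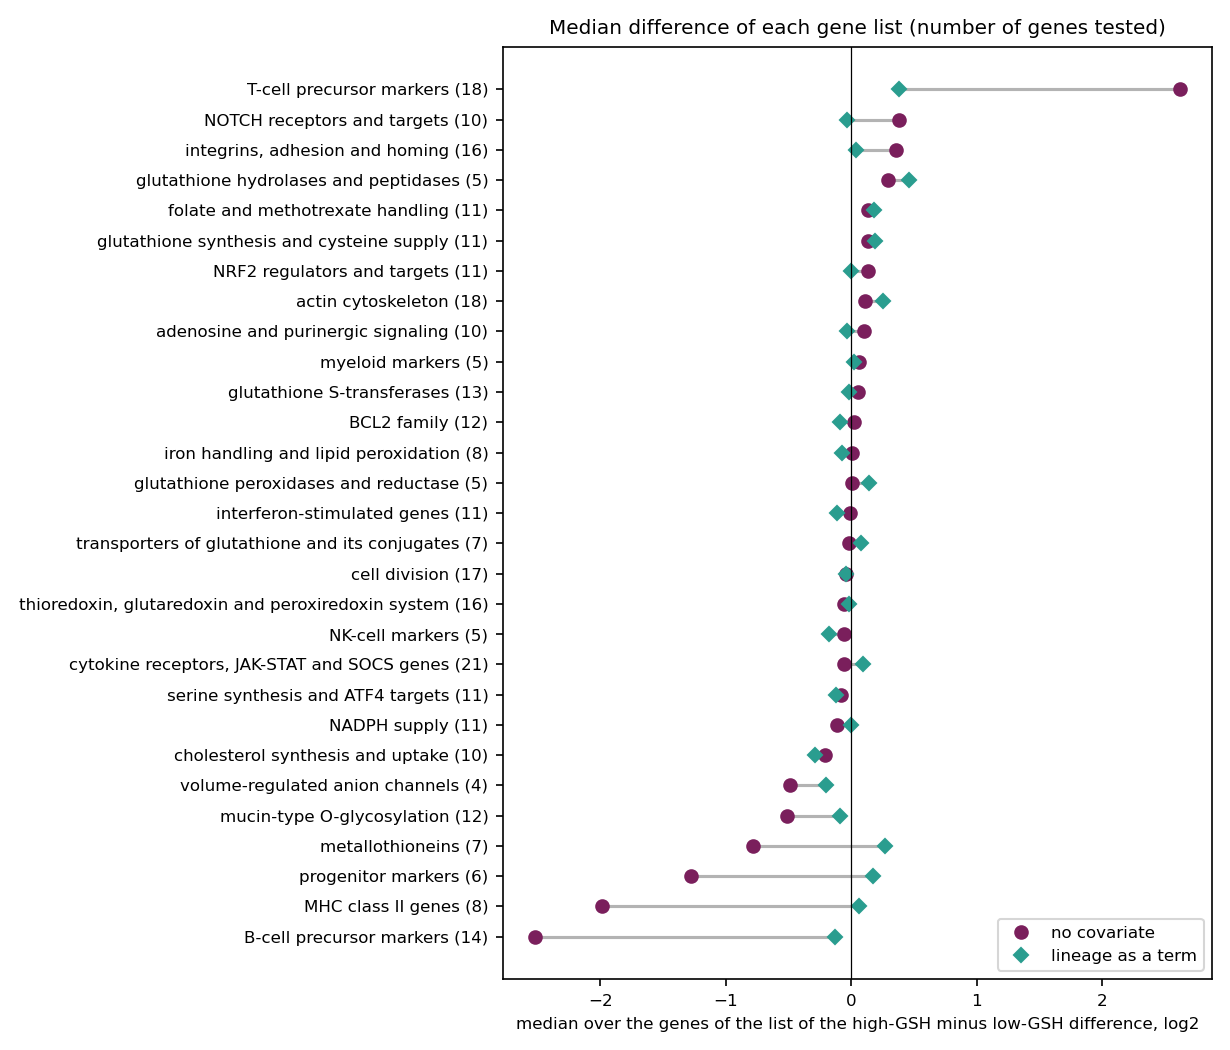
Median high-GSH minus low-GSH difference of each gene list, in log2 units, with no covariate (circles) and with the lineage as a term (diamonds), with the number of genes tested in brackets. The medians of the T-cell, B-cell, MHC class II and progenitor lists move toward 0 with the lineage, from 2.62 to 0.38, from -2.52 to -0.13, from -1.99 to 0.06 and from -1.28 to 0.17.

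Outside redox metabolism, genes of the actin cytoskeleton had, with no covariate, the most members past an unadjusted p of 0.05 in one direction among the lists other than lineage markers, 4 higher of 18 tested against 3.58% of all genes. They had a median of 0.11, and PFN2, CNN2, TPM1 and CNN3 were the 4. With the lineage as a term 2 passed, PFN2 and TPM1, while the cytokine receptor, JAK-STAT and SOCS list had 3 lower in that fit. PFN2, a profilin that binds actin monomers, was 9.21 in HPB-ALL, 9.10 in Jurkat, 9.66 in Molt4 and 9.39 in Nalm30. In the low-GSH lines it was 8.86 in REH, 5.80 in 697 and 4.32 to 4.49 in the other 3, so 1 low-GSH line lay close to the high-GSH level. Its difference was 3.76 (standard error 0.871, adjusted p = 0.599), and it passed without REH, at 4.58 (adjusted p = 0.00393). ACTB, chosen for mention after its values were seen, also had separate groups, 0.01 apart, with a difference of 0.15 (adjusted p = 0.918). TPM1, a tropomyosin, differed by 1.44 and CNN2, a calponin, by 1.09, both with overlapping groups.
Of 12 genes of mucin-type O-glycosylation 4 were higher (median -0.51), among them GALNT12 (3.06) and GALNT6 (1.31), which start O-glycan chains and passed at an unadjusted p under 0.05, while GCNT1, which branches them, was lower (-1.63). GALNT12 followed the same lines as PFN2, at 7.30 to 8.43 in the high-GSH lines, 7.04 in REH and 4.0 to 4.23 in the other low-GSH lines, and it also passed without REH (3.64, adjusted p = 0.00349).

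Of 21 cytokine receptor, JAK-STAT and SOCS genes 9 were higher (median -0.06). SOCS2 alone had an unadjusted p under 0.05 with no covariate (adjusted p = 0.203 by limma). SOCS1, a relative of SOCS2 that inhibits JAK kinases, was 9.82 in ALL-SIL and at most 7.0 in the other 8 lines, with a difference of -0.86 that was -2.59 with the lineage. Of 10 genes of adenosine and purinergic signaling 7 were higher (median 0.10). ADORA2B alone had an unadjusted p under 0.05 with no covariate (adjusted p = 0.194 by limma). None of 4 subunits of volume-regulated anion channels was higher (median -0.49). LRRC8C, one of those subunits, ran from 5.94 in Molt4 to 7.21 in Nalm30 in the high-GSH lines and from 7.43 in RS4;11 to 8.75 in 697 in the low-GSH lines, a difference of -1.62 (standard error 0.354, adjusted p = 0.509). Its groups did not overlap in 3 of 4 probe sets.

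Of 17 cell division genes 7 were higher (median -0.04). CCNB1, the cyclin of entry into mitosis, passed at an unadjusted p under 0.05 with a difference of 0.67, and its groups lay 0.04 apart because REH (10.47) lay above the other low-GSH lines (9.78 to 9.92). Of 12 BCL2 family genes 6 were higher (median 0.02), and BAD, a proapoptotic member, alone passed, at 0.64. BCL2 itself, at -1.24, did not pass, and Nalm30 (9.61) lay above the other high-GSH lines (7.39 to 7.61). Of 11 genes of folate and methotrexate handling 6 were higher (median 0.13) and 1 passed, GART, of purine synthesis, at 0.57, which was -0.02 for its most variable probe set. Of 10 NOTCH receptors and targets 7 were higher (median 0.38, or -0.03 with the lineage). HES4 alone had an unadjusted p under 0.05 with no covariate (adjusted p = 0.733 by limma). Of 16 integrin, adhesion and homing genes 10 were higher (median 0.36) and of 11 interferon-stimulated genes 5 were (median -0.01), none passing with no covariate. Of 10 genes of cholesterol synthesis and uptake 2 were higher (median -0.21) and 1 passed, IDI1, an isomerase of the mevalonate pathway, downward (-1.11).

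The 4 lines between the groups were placed by the midpoint between the means of the high-GSH and low-GSH lines. For the 129 genes higher in the high-GSH lines, CCRF-CEM lay on the high-GSH side of the midpoint for 87, Nalm16 for 74, P12-ICHIKAWA for 59 and TALL-1 for 57. For the 82 genes lower in the high-GSH lines, Nalm16 lay on the high-GSH side for 69, CCRF-CEM for 46, TALL-1 for 44 and P12-ICHIKAWA for 40. Nalm30, whose array was close to that of Nalm16 (correlation 0.959), helped define both sets, so the placement of Nalm16 is not independent of them. The arrays of P12-ICHIKAWA and TALL-1 (0.993) likewise do not give separate placements.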

How the data were processed

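Biotin-labeled RNA of 13 untreated cell lines, 1 sample each, was hybridized to HG-U133 Plus 2.0 arrays. The deposited values are log2 values that the authors made with the iterPLIER+16 algorithm in Affymetrix Expression Console, per the labels and methods (no version was given). Since 16 was added to each signal, the lowest value is 4. No source used here states a scaling between arrays, whose medians ran from 5.05 to 5.37. Of 42450 probe sets, 38125 had 1 gene symbol in the platform annotation, 1742 several (20 of them older names of 1 gene) and 2583 none. Each of 18549 genes took its probe set of highest mean. Genes above the array median in at least 3 lines were tested with limma 3.58.1 (R 4.3.3) on the 9 lines, with Benjamini-Hochberg adjustment over 12559 genes. The fits were tried on simulated data with differences larger than most of those reported here, so the recovery of smaller differences was not examined. Alternatives were other filters, probe sets, scalings, variance models, each line left out and each lineage alone. The number of arrays limits the precision, and p-values measure the spread between lines. The groups and gene lists were chosen with earlier results of these data known. Named genes were GCLC and TXNRD3, per fit and direction the 8 of smallest p (the 10 of largest difference where 5 or more passed), the 8 widest gaps per direction, and per list and fit the 3 of smallest p. Levels of sex-linked marker genes are not reported.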

Additional observations from a re-analysis of the deposited data

Results flagged for a closer look

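Single lines stood apart from their group in 21 of the groups of lines examined, a high-GSH and a low-GSH group for each of 63 named genes, where the gap to the nearest line, as a share of the range of the group, exceeded the critical value of Dixon's test. Chance gives such a line in about 1 of 20 groups of normally distributed values, a rate that does not apply directly here, since the genes were chosen by their results and several groups lay at the floor. In the low-GSH group, REH was the high line for MAP3K21 (share 1, as the other 4 lines were at the floor), GALNT12 (0.923), TXNRD3 (0.826) and CCNB1 (0.802). Line 697 was the high line for CNN3 (0.966), CBS (0.895), GGTLC1 (0.866) and ZNF462 (0.74). ALL-SIL was the high line for TRDV3 (0.941), CASP1 (0.913), SOCS1 (0.896) and OSBPL8 (0.796) and the low line for MGST3 (0.781) and FLI1 (0.775). Nalm6 was the high line for GRID1 (0.948), at 14.60 where the other low-GSH lines lay from 6.97 to 7.37. In the high-GSH group, Molt4 was the high line for ZNF462 (0.923) and the low line for CEBPZOS (0.901), and HPB-ALL was the low line for FAM107B (0.849). Nalm30 was the high line for BCL2 (0.898) and GGT7 (0.875), and Jurkat for SRXN1 (0.868).

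The GSH difference within T-ALL exceeded that within BCP-ALL for HES4, by 4.86, for ANKEF1, by 3.82, and for PLEKHG4, by 3.16, by the interaction of group and lineage in limma, with adjusted p of 0.0281, 0.0339 and 0.0488. For TRDV3 the T-ALL difference minus the BCP-ALL difference was -11.28 (adjusted p = 0.000125).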

How the results depend on the processing

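The 1 gene called with no covariate became 0 (575 at an unadjusted p under 0.05) under the stricter filter on low expression, where CPVL was not tested, 279 within BCP-ALL, and another single gene, CLEC2D, when all 13 lines shared the spread. Leaving out 1 line gave 1 to 42 genes, with 42 without Nalm30, 14 without ALL-SIL, 4 without REH, 3 without 697 and 2 without RS4;11 or HPB-ALL. With the lineage as a term, the count was 0 (1365 unadjusted) under the stricter filter 3, CLEC2D, MAPK8 and ADAMTS10, when all 13 lines shared the spread, and 0 (2282 unadjusted) when TALL-1 was left out of them, an alternative chosen after seeing the data. It was 1 to 901 without 1 line, with 901 without ALL-SIL, 108 without Nalm30, 3 without REH or HPB-ALL and 2 without 697 or RS4;11. The 211 genes whose groups did not overlap became 300 to 789 without 1 line. They numbered 789 without HPB-ALL, 682 without Nalm30, 576 without ALL-SIL, 379 without Jurkat, 354 without Molt4 and 344 without RS4;11. Genes ordered in both lineages numbered 1755, and 1913 to 2906 without 1 line, the most without HPB-ALL, and no count could be had without Nalm30 or ALL-SIL. Leaving out a line cannot lower either of these counts, since fewer lines must meet the condition, so only the size of each rise is informative. The 195 genes that differed between lineages became, in alternatives chosen after seeing the data, 342 with no filter and 67 to 252 without 1 line, with 67 without REH, 86 without Jurkat, 92 without Molt4, 104 without Nalm6 and 128 without 697. Unadjusted calls with no covariate numbered 716, and 2985 within BCP-ALL. Those with the lineage numbered 1513, but 2617 when all 13 lines shared the spread, 832 without Nalm30 and 3036 without ALL-SIL. Of 1245 alternative values of 63 named genes, 8 changed sign: GART for its most variable probe set (-0.02), HES4 (-0.01), BCL2 (0.28) and TRDV3 (0.10) within BCP-ALL, SLC7A11 without Nalm30 (range without 1 line -0.91 to 0.11), and MGST3 (-0.47 to 0.87), SOCS1 (-1.39 to 0.03) and TRDV3 (-2.84 to 0.04) without ALL-SIL. No paired analysis was possible because replicate numbers only name the lines.

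With 9 arrays, many differences of 1 log2 unit or more missed the adjusted threshold. GSH was measured in other cultures than RNA. Lineage and GSH group can be told apart only through Nalm30 and ALL-SIL.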
